A study of Homo sapiens with 2 samples.

Results

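Genes for histone modifiers and chromatin remodellers were examined in A549 cells, an established human lung adenocarcinoma line, after silencing of SQSTM1, which encodes the autophagy receptor p62. The members are genes whose symbol in the platform annotation begins with KDM, KMT, KAT, SETD, NSD, HDAC, SIRT, PRMT, BRD, SMARC, CHD, ARID or DNMT, with a following digit where the family is numbered and without KDM3A. This rule found 97 of the 14884 genes named on the array, of which 93 code for proteins. The other 4 were the non-coding loci KDM4A-AS1, KDM7A-DT and KMT2E-AS1 and the pseudogene BRD7P3. None of the named genes carried a SMARC symbol, so the ATPases and core subunits under that name were not analysed here. The study held 2 Affymetrix arrays. One carried RNA from cells given a control siRNA (siCONTROL) and the other RNA from cells given an siRNA directed at p62/SQSTM1 (siP62), in either case collected 24 hours after transfection. Both groups are the same cell line with no other agent named in the labels, and each group is 1 array, with the number of cultures behind it not stated. There is therefore no replicate error, no test between the groups and no p-value anywhere below, and every difference is one between 2 arrays.

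Chromatin genes of this kind act in layers. Writers add methyl or acetyl groups to histone tails or methyl groups to DNA, erasers remove them, readers with bromodomains bind acetylated lysines, and remodellers use ATP to slide, evict or exchange nucleosomes. Methylation of histone H3 at lysine 4 (H3K4) marks active promoters and enhancers, at lysine 36 (H3K36) transcribed gene bodies, and at lysines 9 and 27 (H3K9, H3K27) silenced chromatin. In lung adenocarcinoma several of these genes, among them ARID1A and SETD2, are recurrently mutated. The protein p62 also binds KEAP1 and can thereby bear on the transcription factor NRF2. Whether it does so in these cells was not tested.

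Values are log2 values per probe set. A difference is the siP62 value minus the siCONTROL value on that scale, so a negative difference means a lower value after silencing. Genes were kept where at least 1 of the 2 arrays read 5.35 or more, the median of all named probe sets, which left 81 of the 97 members and 7896 of all genes. The target checked the labels: SQSTM1 read 8.64 with siCONTROL and 7.30 with siP62, 39.5% of control. Of the epithelial markers on the array, 5 of 6 passed the same limit, with KRT18 at 11.95 and 11.97 and EPCAM at 7.38 and 7.59. Of the alveolar markers 2 of 7 were kept, SFTPB (5.66 and 5.30) and SFTPD (5.85 and 5.27), through the siCONTROL array alone, while NKX2-1 (4.41 and 4.24) and SFTPC (4.27 in both) did not reach the limit. Markers of other cells were kept for 1 of 2 leukocyte genes (CD14, 5.98 and 5.94), 1 of 2 fibroblast genes (LUM, 5.02 and 5.49) and 0 of 3 endothelial genes. With bulk RNA, fewer cells expressing a gene and less RNA per cell cannot be told apart.

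The members lay slightly lower in the siP62 array than genes at large. Their median difference was -0.04 over 81 members, against 0.04 over all 7896 kept genes. Lower values were seen for 47 members (58%), higher values for 33 (40.7%) and the same value for 1, whereas 41.8% of all kept genes were lower and 55.4% higher. After the median of all genes was subtracted, 51 members were lower and 28 higher, beside 49.5% and 48.7% of all genes. Large differences were rare. At 1.5-fold or more, 2 members were lower, the methyltransferase gene NSD1 and the acetyltransferase gene KAT2B, beside a background of 1.6% of all kept genes, and 0 were higher, beside 2.08%. NSD1 alone was lower by 2-fold or more (background 0.228%), and 0 members were higher by that much (background 0.165%). The 1.5-fold split of all genes was 164 higher and 126 lower as deposited and 127 and 154 once centred on their median. Without NSD1 and KAT2B the members' median was -0.03.

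**Figure D1:**
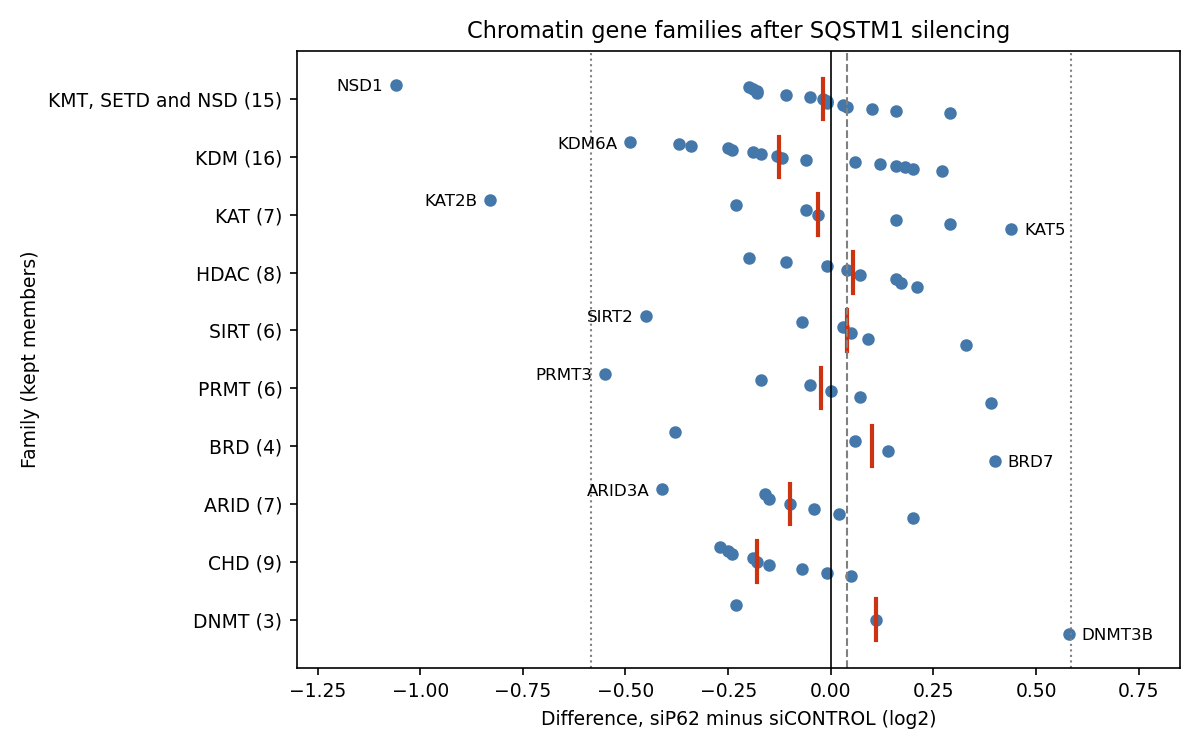
Difference between the arrays (siP62 minus siCONTROL, log2, horizontal axis) for each of the 81 kept members, by family (vertical axis, number of kept members in brackets); 1 point is 1 gene and a red bar is the family's median. The dashed grey line is the median of all kept genes (0.04) and the dotted lines mark 1.5-fold; NSD1 and KAT2B lie beyond the lower one, DNMT3B lies just inside the upper one, and 8 of 9 CHD genes lie below 0.

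To judge a single difference, it was set beside the robust SD, a scaled median absolute deviation, of the differences of the 394 or 395 kept genes of like level (1 of 20 bins). This is a spread over genes between 2 arrays, not an error between replicates. Within 1 robust SD of their bin's median lay 50 members (61.7%), against 67.2% of all kept genes. More than 2 robust SD below it lay 6 members (7.41%), against 4.38% of all kept genes, namely NSD1, KAT2B, PRMT3, KDM6A, SIRT2 and ARID3A. Above that limit lay 1 member (1.23%), DNMT3B, against 3.67% of all kept genes.

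**Figure D2:**
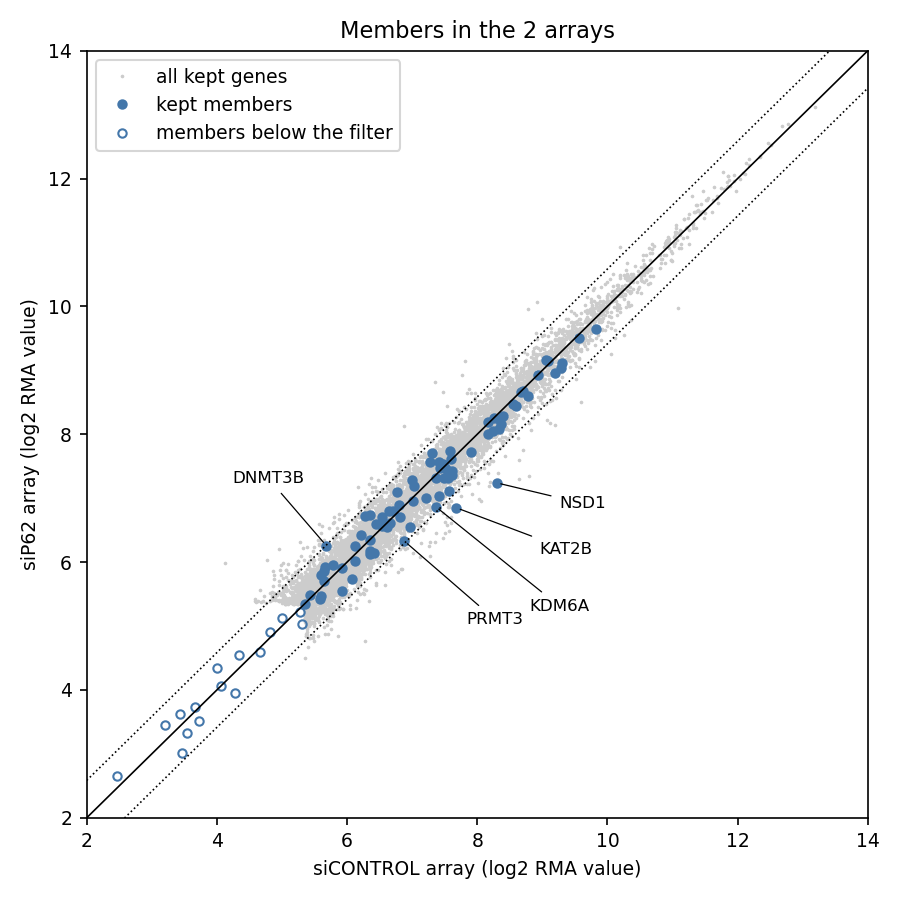
Log2 value in the siCONTROL array (horizontal axis) and in the siP62 array (vertical axis) of the members (blue; open circles are the 16 members below the filter) and of all kept genes (grey). The solid line marks equal values and the dotted lines 1.5-fold; the members follow the cloud of all genes, with NSD1 (8.30 and 7.24) and KAT2B (7.68 and 6.85) below the lower dotted line.

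The bases before the start site are shown for the 3 members with the largest absolute differences, NSD1, KAT2B and DNMT3B. They are the 100 bases that end at the base before an annotated start in RefSeq (GRCh38.p14, 5′ to 3′ on the gene's strand). For NSD1 this is the most upstream of 5 annotated starts. For KAT2B and DNMT3B only 1 start each was listed. Whether that start is the most upstream one of the gene, or the one used in these cells, was not checked. The stretches lie at chr5:177131698-177131797, chr3:20040346-20040445 and chr20:32779752-32779851, all on the plus strand. Capitals mark CACGTG (E-box, a site class bound by MYC and TFEB type factors) and GGGCGG or its complement (GC box, a site class bound by SP1).
NSD1: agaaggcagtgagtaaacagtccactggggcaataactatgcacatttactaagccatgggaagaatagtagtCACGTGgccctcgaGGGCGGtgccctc
KAT2B: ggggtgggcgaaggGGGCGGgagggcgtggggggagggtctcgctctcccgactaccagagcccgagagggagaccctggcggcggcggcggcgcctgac
DNMT3B: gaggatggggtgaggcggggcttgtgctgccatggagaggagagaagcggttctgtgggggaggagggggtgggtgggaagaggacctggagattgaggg
The stretch of NSD1 held 1 E-box and 1 GC box with 52% G and C, that of KAT2B 1 GC box with 78%, and that of DNMT3B neither motif with 65%. A match of letters is a description of the sequence and shows no binding.

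Among the lysine methyltransferases, the writers of H3K36 methylation differed from each other. NSD1, which dimethylates H3K36, read 8.30 with siCONTROL and 7.24 with siP62, a difference of -1.06 that left 48.0% of the control value. It had the lowest difference of the 395 genes in its bin, whose robust SD was 0.22. Its paralog NSD2, which sets the same mark, read 7.28 and 7.57, a difference of 0.29 and the highest of the family. NSD3, the third of these paralogs, read 8.26 and 8.25, and its other probe set, which lay below the filter, differed by 0.08. SETD2, which adds the final methyl group to H3K36, read 7.21 and 7.01. Among its paralogs NSD1 was thus the only one past 1.5-fold, and its value rests on 1 probe set.

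The H3K4 writers on the array, 5 of 13 listed, were mostly lower by small amounts. KMT2C and KMT2D, the enhancer methyltransferases, read 9.30 and 9.11 and 8.40 and 8.29 in the siCONTROL and siP62 arrays. KMT2B, a promoter methyltransferase, read 7.90 and 7.72, and SETD1A, the catalytic subunit of a SET1 complex, 7.37 and 7.32. SETD7, which monomethylates H3K4 and other proteins, read 7.59 and 7.62. Of the 5 genes 4 were lower, and their median difference was -0.11. The background for this and the following counts is 41.8% lower and 55.4% higher among all kept genes. The 3 KMT5 genes, which methylate histone H4 at lysine 20, were all higher, with 0.04 for KMT5A, 0.10 for KMT5B and 0.16 for KMT5C. SETD3, which methylates a histidine of actin, differed by -0.18 and SETD5 by -0.02, and the non-coding KMT2E-AS1 by -0.01. In the whole family of KMT, SETD and NSD genes 10 of 15 kept members were lower and 5 higher, with a median of -0.02. SETD6 and SETD9 lay below the filter.

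Acetyltransferase genes ranged from -0.83 to 0.44. KAT2B (PCAF), which acetylates histone H3 as part of SAGA type complexes, read 7.68 with siCONTROL and 6.85 with siP62. This is a difference of -0.83, or 1.78-fold, and no gene of the 395 in its bin had a lower one. KAT2A (GCN5), which takes the same place in these complexes, read 8.70 and 8.67. The paralogs thus differed by unequal amounts, as with NSD1. KAT5 (TIP60), the catalytic subunit of NuA4, read 6.28 and 6.72, a difference of 0.44 and the highest of the family. KAT8 (MOF), which acetylates histone H4 at lysine 16, read 7.00 and 7.29. KAT7 (HBO1) differed by -0.23, KAT6B by -0.06, and KAT14, a subunit of the ATAC complex, by 0.16. All 7 KAT genes on the array were kept. Their median was -0.03, and 0.065 over the other 6 when KAT2B was left out.

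Arginine methyltransferases also went both ways. PRMT3, a mainly cytoplasmic enzyme that methylates a ribosomal protein, read 6.88 and 6.33, a difference of -0.55, and 7 of the 395 genes in its bin were lower. PRMT2 read 6.35 and 6.74, a difference of 0.39. PRMT1, the main source of asymmetric dimethylarginine, differed by 0.07, and PRMT5, the main source of the symmetric form, by -0.17. PRMT7 differed by -0.05 and PRMT9, which sat at the limit of the filter with 5.35 in both arrays, by 0. The median over the 6 was -0.025, and PRMT6 and PRMT8 were not kept.

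Of the 3 kept DNA methyltransferases, 2 were higher and 1 lower. DNMT3B, a de novo methyltransferase, read 5.68 with siCONTROL and 6.26 with siP62, a difference of 0.58 or 1.49-fold. This was the highest difference of all 81 members, just inside the 1.5-fold limit of 0.585, and 7 of the 394 genes in its bin were higher. DNMT3A, the other de novo enzyme, went the other way with 6.36 and 6.13. DNMT1, which copies methylation after replication, read 9.06 and 9.17. The cofactor gene DNMT3L lay below the filter.

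Among the erasers, lysine demethylase genes were more often lower than higher, with 10 of 16 lower (62.5%), 6 higher and a median of -0.125. Of all kept genes 41.8% were lower. KDM6A (UTX), which removes H3K27 methylation, read 7.36 and 6.87 in the siCONTROL and siP62 arrays, the lowest difference of the family at -0.49. Its paralog KDM6B read 7.49 and 7.32. Demethylases of H3K9 were lower in 4 of 5 kept genes, with KDM4C at 5.92 and 5.55, KDM4B at 6.08 and 5.74, KDM3B at 9.28 and 9.03 and KDM7A at 5.60 and 5.47. KDM4A was the exception with 7.58 and 7.74. The testis-enriched KDM4D and KDM4E lay below the filter.

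The H3K4 demethylases had no common direction. KDM1A (LSD1) read 9.56 and 9.50, KDM5A 8.24 and 8.05 and KDM5B 9.09 and 9.15. KDM5C had the highest difference of the family at 0.27, from 5.66 to 5.93, whereas KDM5D, its counterpart on the Y chromosome, differed by -0.12. Probes were not checked against these near-identical copies. KDM1B differed by 0.18, and KDM2B, listed for both H3K4 and H3K36, by 0.12. KDM8 and KDM2A, listed for H3K36 alone, differed by 0.20 and -0.24.

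Histone deacetylase genes lay close to 0. Their 8 kept members ran from -0.20 to 0.21, with 5 higher (62.5%), 3 lower and a median of 0.055, beside 55.4% of all kept genes higher. HDAC1 and HDAC2, the paired catalytic subunits of NuRD, SIN3 and CoREST complexes, marked both ends. HDAC1 read 8.36 and 8.16, and HDAC2 read 5.65 and 5.86 on one probe set and 2.50 in both arrays on its other. HDAC6, a cytoplasmic deacetylase that binds ubiquitin and acts with p62 at protein aggregates, differed by 0.16. HDAC4 differed by 0.17 on one probe set and by 0.20 on its other, which lay below the filter. HDAC3, HDAC8, HDAC5 and HDAC7 differed by 0.07, 0.04, -0.01 and -0.11. HDAC9, HDAC10 and HDAC11 were not kept.

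Sirtuins, the NAD-dependent deacylases, had a median of 0.04 over 6 members, equal to that of all genes. SIRT2, a mainly cytosolic tubulin deacetylase, read 7.57 and 7.12, a difference of -0.45. SIRT7, the nucleolar member, read 6.77 and 7.10, a difference of 0.33. SIRT1, SIRT6 and the mitochondrial SIRT5 and SIRT3 lay between, at 0.03, 0.09, 0.05 and -0.07, and SIRT4 was below the filter.

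The 4 kept readers of the BRD family split in a similar way. BRD3 read 7.41 and 7.03, a difference of -0.38, while BRD2, another protein of the BET type, read 7.42 and 7.56. BRD7, a subunit of the PBAF form of SWI/SNF, read 7.31 and 7.71, a difference of 0.40 and the highest of the family. BRD8, a subunit of NuA4, differed by 0.06. The pseudogene BRD7P3 lay far below the filter with 2.47 and 2.66.

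Among the remodellers, the CHD family had a median of -0.18 over 9 members. This was the lowest of the family medians, though with the filter at the 70th percentile that of the KDM genes was lower (-0.17 against -0.165). Of these 8 were lower, beside 41.8% of all kept genes. The values of the siCONTROL and siP62 arrays were 6.41 and 6.14 for CHD7, 7.62 and 7.37 for CHD6 and 9.20 and 8.96 for CHD9, which form a common subfamily with CHD8 (8.55 and 8.48). CHD1, which binds methylated H3K4, read 8.60 and 8.45, and CHD2 read 7.61 and 7.43. CHD3 and CHD4, the ATPases of NuRD, read 9.83 and 9.64 and 8.93 and 8.92. CHD1L, which lacks chromodomains, was the one higher member with 7.43 and 7.48, and the neural CHD5 was not kept. Every difference was small, with a range from -0.27 to 0.05, and none exceeded 2 robust SD of its bin. Without CHD7, the lowest, the median was -0.165.

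ARID genes, which encode proteins with an AT-rich interaction domain, had a median of -0.10, with 5 of 7 lower, beside 41.8% of all kept genes. ARID3A, a DNA-binding factor first known from B cells, read 6.96 and 6.55, a difference of -0.41, and its relative ARID3B read 6.22 and 6.42. The SWI/SNF subunits ARID1A and ARID1B, which exclude each other in that complex, differed by -0.15 and -0.10. ARID4B, ARID5A and ARID5B differed by 0.02, -0.16 and -0.04, and ARID3C lay below the filter. The 16 members below the filter had values of at most 5.31 and differences from -0.46 (KDM4E) to 0.35 (KDM4A-AS1), and no detection call came with them.

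Members in the class of longest genes were more often lower than all genes of that class. Kept genes were divided into 5 length classes of equal size by genomic length in RefSeq (GRCh38.p14), introns included. The longest class, from 84.0 to 1388 kb, held 29 of the 81 members, of which 23 (79.3%) were lower and 6 higher, with a median of -0.19. All 1579 genes of that class had a median of 0 with 49.7% lower. The next class, from 38.2 to 83.9 kb, held 27 members with 13 lower and 13 higher and a median of 0. All genes of that class had a median of 0.02 with 44.3% lower. In the 3 shorter classes together, 11 of 25 members were lower (44%), with a median of 0.04. All genes there had a median of 0.06 with 38.4% lower. Across the 81 members the difference had a Spearman correlation of -0.38 with gene length, and across all 7896 kept genes of -0.10. With mean level the correlation was -0.25 across the members and 0.02 across all kept genes. These are correlations across genes of 1 pair of arrays, and genes are not independent replicates. Without the CHD genes, 19 of the 24 members of the longest class were lower, with a median of -0.185. Members had a median length of 53.0 kb, against 26.9 kb for all kept genes. The part of gene length in these differences was not tested beyond centring each class on its own median, which gave a members' median of -0.07. The value to set beside it is -0.08, the members' median after centring on the median of all genes, rather than the uncentred -0.04.

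**Figure D3:**
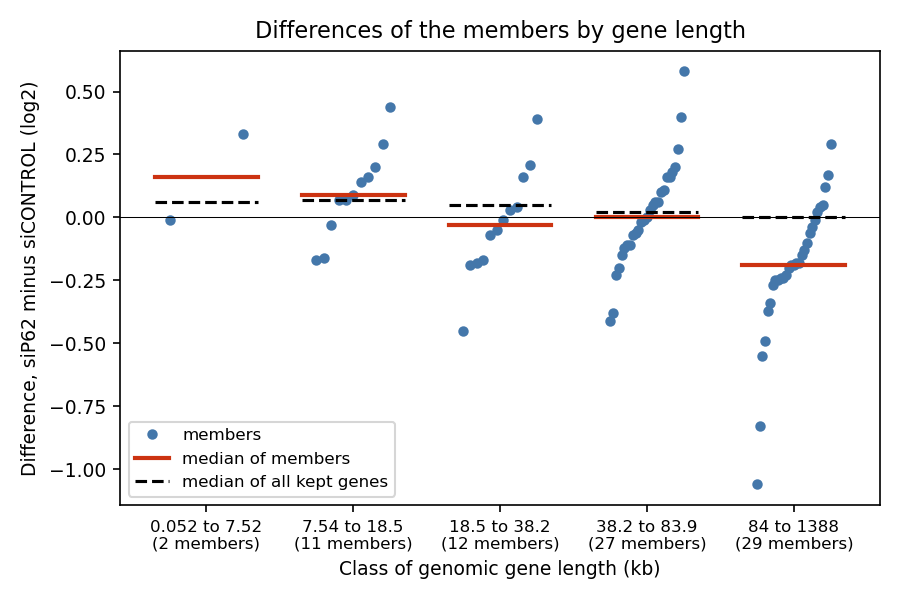
Difference between the arrays (siP62 minus siCONTROL, log2, vertical axis) of the 81 kept members by class of genomic gene length (horizontal axis, range in kb and number of members). Points are genes, red bars the median of the members and dashed bars that of all kept genes in the class; in the longest class the members' median is -0.19 and that of all genes 0.

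Promoter letters were compared next, over the 250 bases before each annotated start, both strands, for the 73 kept members with an entry in the RefSeq promoter table, which does not list every gene. The core of the antioxidant response element bound by NRF2 (TGACNNNGC) was present in 6 members (8.22%), beside 15.4% of the 6258 kept genes with an entry. These were CHD1, HDAC4, HDAC6, KDM4C, KMT2D and SIRT6, of which 3 were lower and 3 higher. A gene can have several starts and so several windows. Counted by window, this core was found in 6.09% of the members' 115 windows and 10.9% of all 35116. The GC box was present in 51 members (69.9%), beside 76.1% of kept genes. By window the shares were 64.3% for members and 42.6% for all. The E-box was present in 12 members (16.4%), beside 11.3% of kept genes. By window the shares were 11.3% for members and 6.34% for all. Of the 12 members with an E-box, 8 were lower and 4 higher with a median difference of -0.235, against -0.03 for members without it. Most of the 12 were also in the class of longest genes, where the members' median was -0.19. These were CHD9, DNMT3A, HDAC4, KDM4B, KDM4C, KDM6A, NSD1 and PRMT3. The part of gene length in the E-box contrast was not tested. Over all 705 kept genes with an E-box the median was 0.04, the same as without it, and 40.3% were lower. The E-box and 12 bases on each side are shown for the 3 of these members with the lowest differences and the 1 with the highest, chosen after their values were seen, with the E-box in capitals.
NSD1: aagaatagtagtCACGTGgccctcgagggc
PRMT3: ccgcccccacctCACGTGacccgcacggcg
KDM6A: gtcaacaaaggtCACGTGaggcgtgcgggc
KAT5: cccggtgggcgtCACGTGacggactcagta
They lie at chr5:177131759-177131788, chr11:20387517-20387546, chrX:44873081-44873110 and chr11:65712005-65712034 of GRCh38.p14, on the plus strand, with the motif beginning 27, 187, 95 and 235 bases before the start. The same letters thus preceded genes with lower values (-1.06, -0.55 and -0.49) and one with a higher value (0.44).

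Partners of these enzymes outside the symbol rule were read from 11 lists. Of 241 symbols listed, 174 were named on the array and 163 kept. Their median difference was 0.04, the same as that of all genes, with 94 higher (57.7%, beside 55.4% of all kept genes) and 65 lower. At 1.5-fold or more, 1 was higher, beside 2.08% of all kept genes, and 2 were lower, beside 1.6%. CBX2, a Polycomb protein, read 5.57 with siCONTROL and 6.29 with siP62. CBX1, a heterochromatin protein of the HP1 type, read 8.32 and 7.40, and PRDM16 read 5.79 and 5.16, the latter below the filter limit.

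Subunits of COMPASS, the complexes that carry the KMT2 and SETD1 enzymes, were mostly higher. Of those enzymes, KMT2B, KMT2C, KMT2D and SETD1A were kept and lower, with differences from -0.19 to -0.05. KMT2A and SETD1B were not among the members. Of 11 kept subunits 9 were higher (81.8%), 1 lower and 1 equal, with a median of 0.17. Among the higher ones DPY30 and HCFC1 differed by only 0.04. Of all kept genes 55.4% were higher, with a median of 0.04. CXXC1, which binds unmethylated CpG, read 6.45 and 6.96, WDR5, a core scaffold, 6.50 and 6.81, and RBBP5 8.16 and 8.35. PAGR1, which belongs to the KMT2C and KMT2D complexes, was the lower one with 7.19 and 6.78. The difference between the subunits and the catalytic genes was not tested, since each group held 1 array.

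Partners of the acetyltransferases outside the rule had a median of 0.01 over 25 genes, with TADA2B (0.47) and JADE3 (-0.44) at the ends. From these and the other lists, 2 complexes are named here after their values were seen. Their counts therefore describe these sets only and are no result about the complexes. Of 11 SAGA and ATAC partners of KAT2A and KAT2B listed, 8 were kept. All 8 were higher, from 0.06 for TRRAP to 0.47 for TADA2B, while KAT2B itself was lower. TADA1 differed by 0.31, TADA2A and TADA3 by 0.37 and SUPT3H by 0.34. The 13 kept NuA4 partners of KAT5 had 8 lower and 5 higher with a median of -0.09, while KAT5 itself was higher. For both complexes the background is 55.4% higher and 41.8% lower among all kept genes. Of the NuA4 partners, ACTL6A differed by -0.38, MORF4L2 by -0.29, MEAF6 by -0.27 and VPS72 by 0.42. The NuA4 subunit BRD8 (0.06) is a member and was not counted among them. TRRAP belongs to both sets.

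Genes for readers and removal of DNA methylation had a median of 0.165 over 8 members. MBD4 and TDG, the thymine glycosylases, differed by 0.55 and 0.48, while ZBTB33, a methyl-CpG reader, differed by -0.43. Methyltransferases outside the rule had a median of 0.10 over 11 genes, with SMYD2 at 0.56 beside PRDM16. Histone chaperones had a median of 0.075 over 14 genes, with HIRA, which deposits histone H3.3, at 0.43 and DAXX at 0.24. Heterochromatin proteins and other readers were mostly lower, with 13 of 19 lower (68.4%), 6 higher and a median of -0.13. Of all kept genes 41.8% were lower. Besides CBX1, SP110 read 5.77 and 5.24, the latter below the filter limit. The paralogs of CBX1 lay at 0.19 for CBX3 and -0.22 for CBX5.

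Most of the remaining lists lay near the median of all genes (0.04), while demethylases outside the rule lay slightly lower. Polycomb genes had a median of 0.005 over 22 genes, with 11 higher and 10 lower. The H3K27 methyltransferase gene EZH2 read 7.49 and 7.23 in the siCONTROL and siP62 arrays, and SCMH1 differed by -0.39. Genes of NuRD, CoREST and SIN3 had a median of 0.05 over 15 genes, with TBL1XR1 at 0.36 and MTA1 at 0.33. Other SWI/SNF subunits had a median of 0.04 over 9 genes, with ACTL6A at -0.38 and BCL7A at 0.33. INO80, SWR1 and ISWI genes had a median of 0.05 over 22 genes, with MCRS1 at 0.44 and VPS72 at 0.42. Demethylases outside the rule had a median of -0.03 over 7 genes, with RIOX2 at -0.34 and JMJD1C at -0.21. Of the 7, 5 were lower (71.4%), beside 41.8% of all kept genes.

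**Figure D4:**
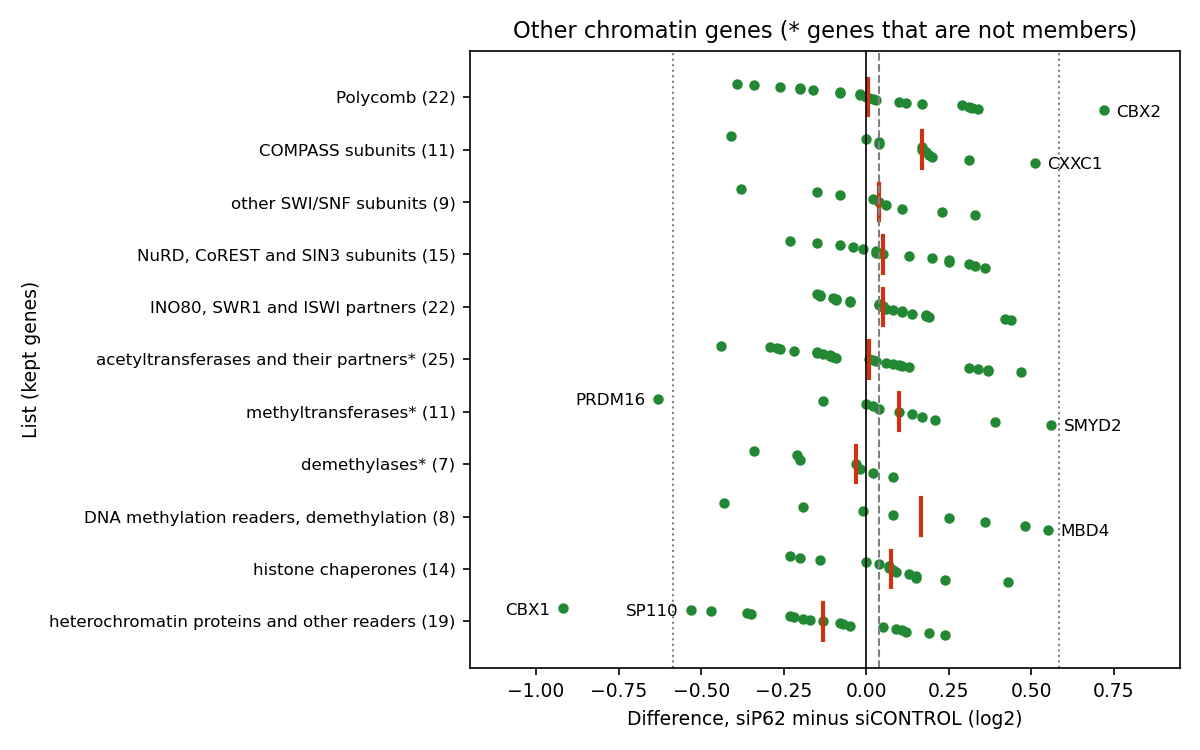
Difference between the arrays (siP62 minus siCONTROL, log2, horizontal axis) of the kept chromatin genes that are not members, by list (vertical axis, number of kept genes in brackets); points are genes, red bars list medians, the dashed line is the median of all kept genes (0.04) and dotted lines mark 1.5-fold. CBX1 and PRDM16 lie beyond the lower 1.5-fold line and CBX2 beyond the upper one, and 9 of 11 COMPASS subunits lie above 0.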

How the data were processed

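The table the authors deposited gives log2 values for 48226 probe sets on each array. Per the submitters' processing notes, RMA and version 4.0.2.15 of Transcriptome Analysis Console were used. The genome build and which arrays were normalized together were not given in the sources used here, and no detection calls came with the values. RNA was extracted with Trizol and labelled from 100 ng, per the labels' protocols. Scanner files were not used here, and precision is limited by the number of arrays. The platform annotation named 16098 probe sets with 1 gene symbol each and 0 with several; the other 32128 entered nothing. The gene identifiers of all 16098 were found in the RefSeq gene table; the RefSeq promoter table is a separate one that holds fewer genes. Per gene the probe set with the highest mean stood for it. Of the members, 94 had 1 probe set. Genes named were members past 1.5-fold, the highest and lowest of each family, the 2 largest of each outside list and SQSTM1; others fill in the families. The members and lists were chosen with earlier results of these data known. Python 3.11.15, pandas 2.3.3 and statsmodels 0.14.6 (loess) were used. The differencing and counting were tested on simulated data, with shifts larger than any member's difference and less noise than in these arrays. That checks the code and not how well small differences are measured.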

Additional observations from a re-analysis of the deposited data

How the results depend on the processing

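Centring on the median, loess centring, quantile normalization of the columns, the mean over probe sets, no filter, a filter at the 70th percentile (6.67) and current symbols were tried, and, chosen after seeing the data, centring within 5 classes of gene length and protein-coding members only. The members' median stayed below 0 under all 9, from -0.08 to -0.03. The median of all genes moved as well, and the members' median lay below it each time. Without a filter the contrast was weaker, with medians of -0.03 for members and 0 for all genes. Lower values were then seen for 55.7% of members and 46.3% of all genes, beside 58% and 41.8% as reported. At the limit of 6.67 the medians were -0.06 for members and 0.05 for all genes. The number of members at least 1.5-fold lower was 2 or 3, PRMT3 being the third with centring on the median. The number of members at least 2-fold lower was 1 throughout. With the filter at the 70th percentile 20 members were higher, since only 55 were kept, and the HDAC median was -0.11 in place of 0.055. The median of readers and demethylation genes of DNA methylation was then 0.305, and 0.0825 with the mean over probe sets, which also gave 0.04 in place of 0.10 for methyltransferases outside the rule. The Polycomb median turned below 0 under 5 of 7 alternatives (lowest -0.035) and that of acetyltransferase partners under 4 of 7 (lowest -0.04). The CHD median ran from -0.2265 to -0.165. No paired analysis was possible because each group held 1 array. With 1 array per group nothing separates a difference of single genes from array noise.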
